A study of Caenorhabditis elegans with 2 samples.

Results

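The DNA damage checkpoint genes described here are 10 named genes of Caenorhabditis elegans (atm-1, atl-1, chk-1, chk-2, mrt-2, hus-1, hpr-9, hpr-17, cep-1 and clk-2), out of 19973 nuclear protein-coding genes. They were taken by name, and all 10 symbols were found in the annotation. The choice was made with earlier results of these data known, so it was not blind to them. For each gene, summits of LIN-35 ChIP-seq peaks were collected within 500 bp of its annotated 5' end.

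LIN-35 is the worm's retinoblastoma family protein. The ChIP-seq was done on whole young adults, males and females pooled, as 2 biological replicates of a single group. All animals were of strain YL521, with genotype unc-119(ed3) III and the integrated transgene vrIs117, in which the pie-1 promoter drives LIN-35 tagged with GFP and FLAG ahead of the puf-5 3' end, together with unc-119(+). The pie-1 promoter is a germline promoter, and the strain is a single integrated line. The antibody entry reads lin-35, and whether the recovered protein was the transgenic or the endogenous one is not given in the sources used here. With 1 group there is no contrast between conditions, so each gene is described in 4 peak lists in ce11 coordinates: the list of 2712 peaks that passed the authors' irreproducible discovery rate threshold, a relaxed pooled list of 30000, and relaxed lists of 30000 and 26192 for replicates 1 and 2. Signals are in the authors' deposited units, whose scale is not stated and differs between lists, so ranks within a list (1 is the strongest) are given beside them. The depth behind each signal is unknown, because no read counts were analysed. No test applies to the counts below, which are descriptions set beside the same count over all coding genes.

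The checkpoint detects broken or stalled DNA and holds the cell cycle, and in the worm germline it can also trigger apoptosis. The kinases ATM and ATR, here atm-1 and atl-1, act at the top. A ring-shaped clamp of RAD1, HUS1 and RAD9 relatives (mrt-2, hus-1, hpr-9), loaded by the RAD17 relative hpr-17, activates ATR, and the effector kinases chk-1 and chk-2 carry the signal on. CEP-1 is the worm p53 family protein, which turns on cell death genes after damage, and CLK-2 is the relative of yeast Tel2, a factor that keeps this kinase family stable in other species. LIN-35 acts in the DREAM complex, where the E2F and DP partners recognise E2F sites and LIN-54 recognises the CHR element, and DREAM is known for repressing cell cycle genes.

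A thresholded LIN-35 summit lay within 500 bp of the 5' end of 5 of the 10 genes, hpr-17, chk-1, mrt-2, hpr-9 and atm-1. Over all nuclear coding genes the share was 8.61% (1719 of 19973). The other 5 genes, atl-1, chk-2, hus-1, cep-1 and clk-2, had no summit at that distance in the thresholded list, the pooled list or either replicate list. By role, 3 of the 4 clamp and clamp loader genes and 2 of the 4 kinases had a thresholded summit, and neither cep-1 nor clk-2 did. The median signal of the 5 bound genes was 161, against 86.1 over the 1719 bound coding genes. In the thresholded list, the farthest summit inside the distance limit was at atm-1 (377 bp) and the nearest outside it was at clk-2 (2317 bp). In replicate 1 the strongest atm-1 summit was closer to the limit, at 445 bp.

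**Figure D1:**
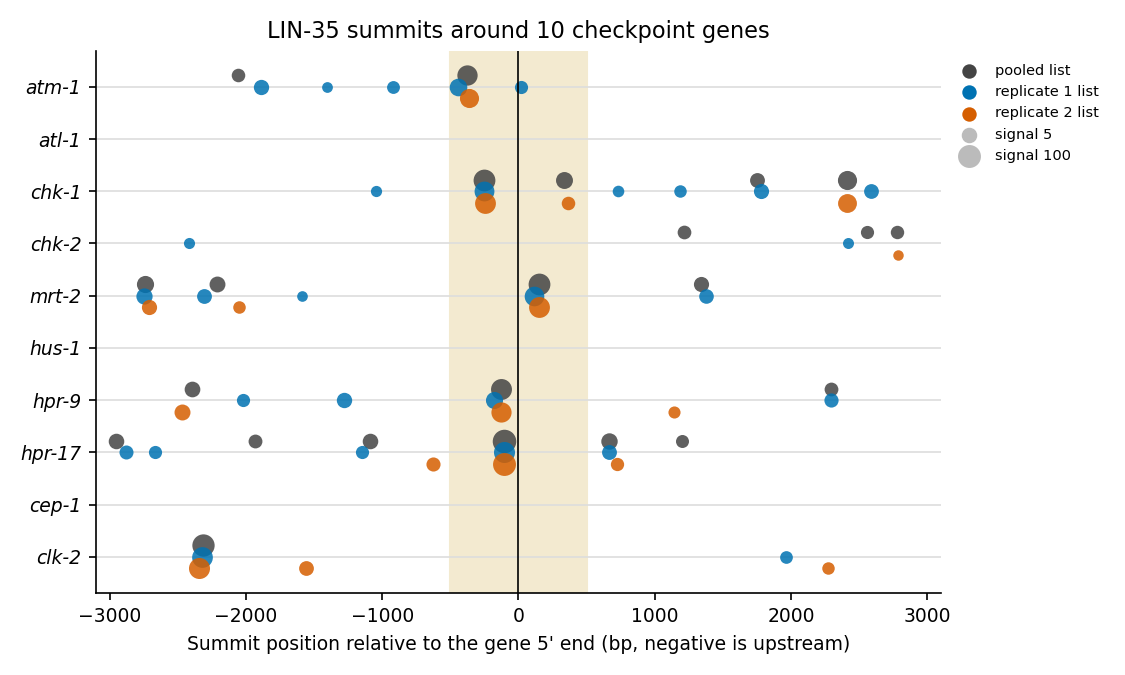
Position of each LIN-35 summit within 3000 bp of the annotated 5' ends of the 10 genes (x axis, bp, upstream negative), with 1 row per gene, colour for the list and point area rising with the logarithm of the deposited signal. The shaded band is 500 bp on each side; large points of all 3 lists fall in it for hpr-17, chk-1, mrt-2, hpr-9 and atm-1, and no point falls in it for the other 5 genes.

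Sequence stretches are shown for the genes the results turn on, each of 30 bases on the strand of the gene, read from the RefSeq WBcel235 genome, which is the ce11 assembly. Capitals mark an E2F word, TTNNCGC with each N a C or a G, or a CHR word, TTNGAA with N a C or a T, on either strand. For chk-1, hpr-17 and hpr-9 the stretch holds the E2F word nearest the bound summit. For mrt-2, whose bound summit has no E2F word within 100 bp, it holds the CHR words. For the unbound kinase genes atl-1 and chk-2 it holds an E2F word in the promoter, for comparison.

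chk-1: gcggtaaaTTCGAAtGCGGCAAcgttttct
hpr-17: tttctcgtccttGCGGGAAacttgaattta
hpr-9: atgcatgcgccGCGGGAAagaagggaaaat
mrt-2: atcggaggtTTCAAATTTGAAtttccgcgc
atl-1: atcgtttaaaatTTCGCGCcgtttcaatag
chk-2: tttaatcgaattTTCGCGCaattttcttcg

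These lie at chrV:3759667-3759696, chrII:13157111-13157140, chrIII:10621337-10621366, chrIII:11746870-11746899, chrV:9645694-9645723 and chrV:19916032-19916061, in the order of the lines. The lines for chk-1, hpr-17, atl-1 and chk-2 are the minus strand and those for hpr-9 and mrt-2 the plus strand.

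The strongest summit was at hpr-17 (WBGene00001998), the clamp loader gene. Its peak at chrII:13157027-13157307 had a signal of 406 and rank 85 in the thresholded list. The signal was 110 (rank 153) in replicate 1 and 291 (rank 65) in replicate 2, and the summit was at the same base, 103 bp upstream of the 5' end, in every list. Of the 1719 bound coding genes, 61 (3.55%) had a strongest summit at or above this signal. The summit is intergenic and is shared with the head-to-head gene F32A11.1, whose 5' end is 179 bp away, so hpr-17 is the nearer of the pair. The spermatogenesis gene spe-18 follows hpr-17 on the same strand after 64 bp and was not bound at its own 5' end.

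Among the clamp genes, mrt-2 (WBGene00003417), the RAD1 relative, had the only summit of the 5 that lay inside a transcript. Its peak at chrIII:11746824-11747028 had a signal of 161 and rank 357. The replicate signals were 56.3 (rank 419) and 100.6 (rank 387). The thresholded summit was 153 bp downstream of the gene's 5' end, in the 5' untranslated region of the longer transcript and 119 bp upstream of the start of the shorter one. Over all bound coding genes, 10.8% (186) had their strongest summit downstream of the annotated 5' end. No other coding 5' end lay within 500 bp.

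The RAD9 relative hpr-9 (WBGene00001997) differed most between the replicates in rank. Its peak at chrIII:10621356-10621487 had a signal of 105 and rank 729. The signal was 18.7 in replicate 1 and 73.0 in replicate 2, and the rank was 2876 in the former, just past the 2712 strongest, and 649 in the latter. The larger rank was 4.43 times the smaller, and 13.6% of the 1294 promoter summits found in both replicates had a ratio at least as large (median 1.82). The summit was 126 bp upstream of hpr-9 and 56 bp from the 5' end that Ensembl gives for the divergent gene lron-10. RefSeq starts lron-10 1215 bp from this summit, and hpr-9 at the same base as Ensembl does, so which gene is nearer depends on the annotation.

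A second thresholded summit lay within hpr-9, far from its 5' end. It was in an intron 3297 bp downstream, in the peak chrIII:10624700-10624995, with a signal of 60.7 and rank 1607. It was found in both replicates, with signals of 22.9 and 36.9 and ranks 2031 and 1794. A tRNA gene on the opposite strand is annotated in the same intron, and its 5' end was 35 bp from the summit. None of the other 9 genes held a thresholded summit in its body beyond 500 bp from the 5' end.

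The remaining clamp gene, hus-1 (WBGene00002042), had no summit in its 1199 bp body and none within 1000 bp of its 5' end in any list. The nearest thresholded summit was 22774 bp downstream, at lin-59. It is head to head with the mismatch repair gene msh-2, whose 5' end is 551 bp away and was not bound either.

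Of the effector kinase genes, chk-1 (WBGene00000498) was bound and chk-2 (WBGene00000499) was not. The chk-1 peak at chrV:3759621-3759806 had a signal of 162 and rank 353. The replicates gave signals of 61.6 (rank 364) and 98.9 (rank 396), a rank ratio of 1.09, with summits 11 bp apart. The summit is intergenic, 254 bp upstream, and no other coding 5' end lay within 500 bp. A weaker summit in the chk-1 coding sequence, 331 bp downstream of the 5' end, was in the pooled list (signal 17.7, rank 9351) and in replicate 2 (5.17, rank 16895) but not in the replicate 1 list. The next gene on the same strand, gid-7, starts 78 bp past the end of chk-1 and had a weak thresholded summit of its own, 2414 bp from the chk-1 5' end (signal 44.8, rank 2476). The replicates differed at this gid-7 summit, with 7.87 (rank 10987) in replicate 1 and 39.8 (rank 1596) in replicate 2.

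At chk-2, best known in the worm for meiotic chromosome pairing, the nearest summit in any list was a pooled one 1214 bp inside the gene, with a signal of 5.50 and rank 26745 of 30000. The nearest replicate summits were 2414 and 2786 bp away, and the nearest thresholded one 18306 bp.

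Of the apical kinase genes, atm-1 (WBGene00000227) had the weakest of the 5 thresholded summits and atl-1 (WBGene00000226) had none. The atm-1 peak at chrI:182922-183046 had a signal of 76.7 and rank 1154, below the median of 86.1 for bound coding genes. The signal was 23.5 (rank 1954) in replicate 1 and 43.9 (rank 1392) in replicate 2. The replicate summits lay 445 and 361 bp upstream, 84 bp apart, and 12.8% of promoter summits found in both replicates were at least that far apart (median 25 bp). The thresholded summit was 377 bp from atm-1 and 215 bp from the divergent gene F56C11.3, so atm-1 was the farther gene. A further replicate 1 summit at atm-1, 17 bp inside the gene, had a signal of 4.60 and rank 19104 and was in no other list.

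For atl-1 the nearest thresholded summit was 83631 bp away, and the nearest pooled one 35683 bp away. Only replicate 1 listed summits in its 10747 bp body, 4 of them, with signals up to 6.36. The gene is head to head with the kinetochore gene hcp-2, whose 5' end is 264 bp away and which was not bound.

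The p53 family gene cep-1 (WBGene00000467) had no summit in its body or within 1000 bp of its 5' end in any list. The nearest thresholded summit was 5530 bp downstream, past the gene's end and at the 5' end of rpl-25.2, a ribosomal protein gene (signal 112, rank 672). Its head-to-head neighbour F52B5.3, 299 bp away, was not bound.

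For clk-2 (WBGene00000537) the nearest thresholded summit lay at the next gene upstream. The end of cux-7 is 103 bp from the start of clk-2 on the same strand. A summit in the peak chrIII:7520755-7520949 sat 4 bp inside cux-7 and 168 bp from the divergent gene C07H6.2, and 2317 bp upstream of clk-2. Its signal was 210 with rank 241, and the replicates gave 94.4 (rank 187) and 110 (rank 331). That is stronger than the summit of 4 of the 5 bound genes. Whether clk-2 is transcribed from the cux-7 promoter is not given in the sources used here. The summit was described after its value was seen.

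The 5 unbound genes lacked even weak summits near their 5' ends. Of all coding genes, 59.7% had no summit within 500 bp in the pooled or either replicate list, and 51.8% had none within 1000 bp, so this absence was common. The background for the relaxed lists was 29.2% in the pooled list, 31.1% in replicate 1, 28% in replicate 2 and 20.3% in both replicates, and the same 5 genes had a summit in each. These genes were therefore either listed in every file or in none at this distance. All thresholded summits of the 5 bound genes were matched within 100 bp in both replicates. Within 200 bp, 1294 of the 1354 thresholded promoter summits were matched in both, so such a match was usual. The thresholded list was itself made from both replicates. Among the 2712 strongest peaks of replicate 1 the bound members numbered 4, against 7.75% of coding genes, and hpr-9 was the one lost. Among the 2712 strongest of replicate 2 all 5 remained (8.47% of coding genes). With only thresholded summits among the strongest of both replicates, 4 remained, against 5.48% of coding genes. The order of the 5 signals was hpr-17, chk-1, mrt-2, hpr-9 and atm-1 in the pooled list. In replicate 1 hpr-9 was below atm-1, and in replicate 2 mrt-2 was slightly above chk-1, 100.6 against 98.9, so chk-1 and mrt-2 cannot be ordered.

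**Figure D2:**
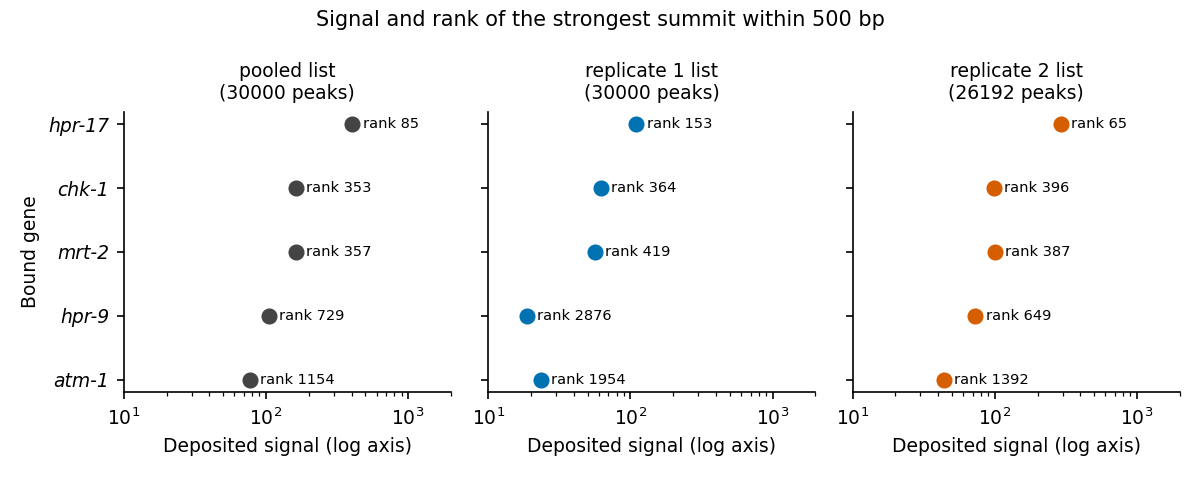
Deposited signal (x axis, log scale, scale of each list its own) of the strongest summit within 500 bp of the 5 bound genes in the pooled and replicate lists, 1 point per gene, with its rank in that list. The signals of hpr-17 (406, 110 and 291) are the highest in all 3 lists, and hpr-9 in replicate 1 (18.7) is the lowest point.

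**Figure D3:**
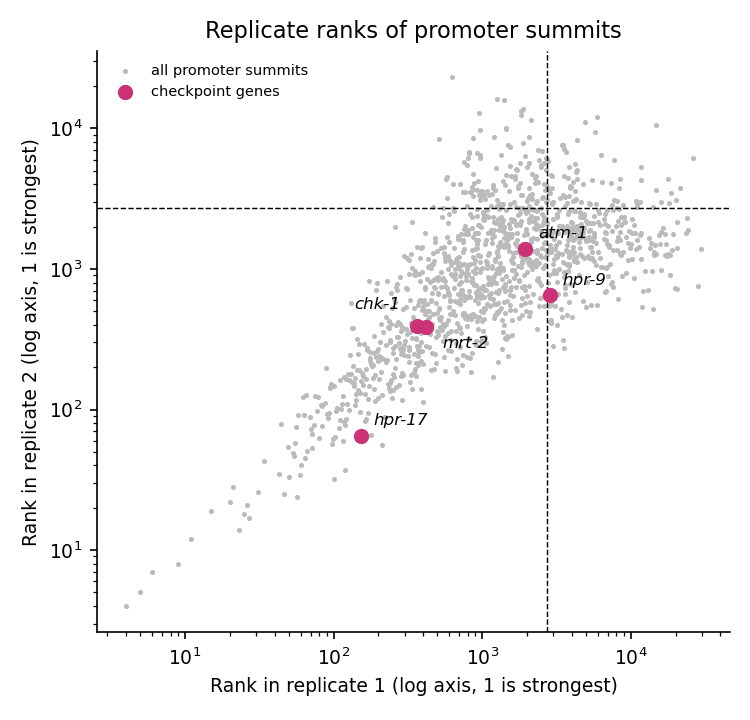
Rank in replicate 1 (x axis) and replicate 2 (y axis), both on log axes, of the 1294 thresholded promoter summits found within 200 bp in both replicate lists (grey) and of the 5 bound checkpoint genes (coloured). Dashed lines mark rank 2712; hpr-9 at 2876 is past the line in replicate 1, and the other 4 genes are inside both lines.

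The surroundings of the genes were compared because a summit between divergent genes counts for both. A head-to-head coding partner within 1000 bp was present for 7 of the 10 genes, of which 3 were bound (atm-1, hpr-9 and hpr-17) and 4 were not (atl-1, chk-2, hus-1 and cep-1). Of all 19973 coding genes, 3539 had such a partner. Of these, 22.7% were bound, against 5.58% of the others. In the 3 bound pairs both genes were called bound by the shared summit, and in the 4 unbound pairs neither gene was bound. The remaining bound genes, chk-1 and mrt-2, had no partner within 1000 bp. Among all 1719 bound coding genes, 44% shared their strongest summit with another coding 5' end and 22.3% had another coding 5' end nearer to it. The members' figures were 3 and 2 of 5. The pair and sharing counts use Ensembl 5' ends. RefSeq starts lron-10 1215 bp from the hpr-9 summit, beyond the 500 bp limit, so by RefSeq it does not share that summit.

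The E2F word and the CHR word were searched on both strands within 100 bp of the summits. Like the genes, the words were chosen with earlier results of these data known. An E2F word was present at 4 of the 5 bound summits, and the share over the 1354 thresholded promoter summits was 24.7%. A CHR word was present at all 5, against 55.2%, and both words at 4, against 16.8%. A word was counted only where it lay wholly inside the window. Within 50 bp an E2F word was at 2 of the 5 summits (19.4% of promoter summits) and a CHR word at 2 (33.6%). At hpr-17 the centre of the E2F word was 25 bp from the summit, at chk-1 45 bp, at atm-1 50 bp and at hpr-9 74 bp. The atm-1 word is centred on the edge of the 50 bp window and runs past it, so it was not counted there. The genes hpr-17, hpr-9 and atm-1 all held the same word, TTCCCGC, which read GCGGGAA on the strand of each gene. It occurred at 6.2% of promoter summits and in 3.22% of coding promoters from 250 bases before to 50 after the 5' end. The chk-1 word was TTGCCGC, found at 4.65% of promoter summits and in 2.5% of coding promoters.

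At chk-1 the E2F word and a CHR word were separated by 1 base, as the sequence above shows. Of the 228 promoter summits with both words, 45 (19.7%) had them at most 1 base apart, and the median was 10. The words of atm-1 were 9 bases apart, those of hpr-17 96 and those of hpr-9 131. The E2F and CHR words searched here cannot overlap by their sequence, so the absence of overlap is no observation. At mrt-2, the line above holds 2 adjoining CHR words that form a palindrome, 31.5 and 37.5 bp from the summit. The GC content within 100 bp of the 5 summits ran from 36.3% at chk-1 to 40.3% at hpr-17, and its median over promoter summits was 39.3%.

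**Figure D4:**
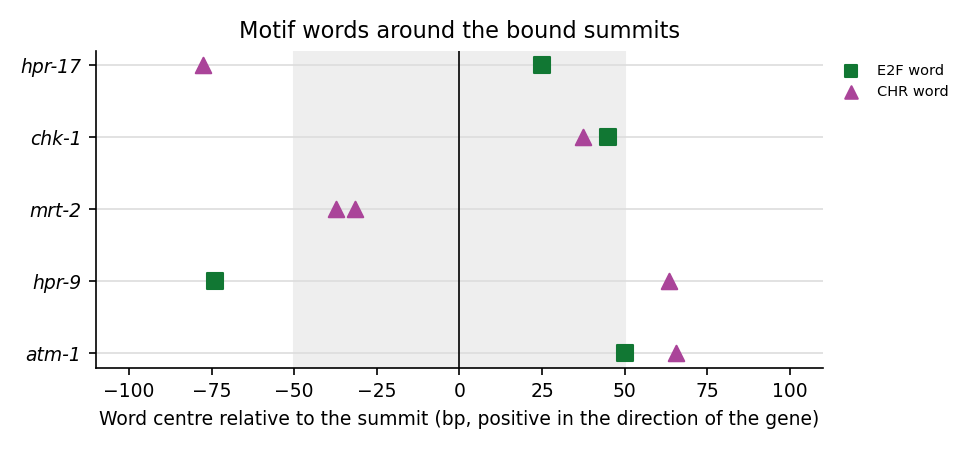
Position of E2F words (squares) and CHR words (triangles) within 100 bp of the thresholded summit of each bound gene (x axis, bp from the summit, positive in the direction of the gene). The shaded band is 50 bp on each side; E2F words lie at 4 genes and none at mrt-2, and at chk-1 both words sit beside each other.

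The same words also occurred in promoters without a summit. In the promoter window, 3 of the 5 bound genes (chk-1, hpr-9 and hpr-17) and 3 of the 5 unbound genes (atl-1, chk-2 and hus-1) had an E2F word, against 9.2% of all coding promoters and 20.7% of those of bound genes. The word of atl-1 and chk-2 was TTCGCGC, centred 113 and 23 bp upstream of the 5' end, and it occurred at 8.12% of promoter summits and in 1.92% of coding promoters. The hus-1 word, TTGCCGC, was centred 43 bp downstream of the 5' end. CHR words were in the promoters of all 5 bound and 4 of the 5 unbound genes, clk-2 being the exception, against 68.9% of coding promoters and 70.6% of those of bound genes. The count of genes with an E2F word in this window was thus the same, 3 of 5, for bound and unbound genes. The window leaves out the E2F word at the atm-1 summit, which is centred 327 bp upstream of the 5' end.

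Other genes of the checkpoint pathway were counted in 5 lists drawn up by role, 41 genes in all, with earlier results of these data known. Of these, 10 (24.4%) were bound, against 8.61% of all coding genes, the share to set beside each list below. With the nearest 5' end only, 7 (17.1%) were bound, without clsp-1, tim-1 and cyb-1, against 6.71% of coding genes. For the partners of the clamp loader, single-stranded DNA and the replication fork the count was 4 of 10. These were clsp-1, the Claspin relative that links ATR to CHK1 in other species (signal 595, rank 36), rfc-4, a clamp loader subunit (297, rank 140), tim-1, the Timeless relative (293, rank 145), and tipn-1, the Tipin relative (84.6, rank 994). The clsp-1 summit is 242 bp from clsp-1 and 23 bp from eef-2, an elongation factor gene, and the tim-1 summit is nearer to Y75B8A.23. The rfc-4 summit is shared with the more distant eef-1A.1, and that of tipn-1 with the more distant ubxn-1. The strongest peaks of the first 3 were stronger than those of every member but hpr-17, and clsp-1 was stronger than hpr-17 as well.

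Of the partners that act at double-strand ends, 2 of 8 were bound. These were brc-1, the BRCA1 relative (signal 233, rank 204), with no other coding 5' end near, and cku-80, a Ku subunit (82.3, rank 1034), shared with the slightly more distant R07E5.7. The gene brd-1, whose product pairs with BRC-1, was not bound, and neither were mre-11, rad-50, nbs-1, com-1 or cku-70. For mre-11 and brd-1 this depended on the list: mre-11 was among the 2712 strongest peaks of replicate 1 (signal 42.2, rank 698) but not of replicate 2 (19.3, rank 4155), and brd-1 among those of replicate 2 (30.6, rank 2288) but not of replicate 1 (5.78, rank 15472). Of the cell cycle targets, 3 of 12 were bound. The inhibitory kinase gene wee-1.3 had a signal of 302 (rank 137) and no other coding 5' end near. The cyclin gene cyb-1 had a signal of 177 (rank 316), 498 bp away and nearer to orc-5, and cdk-1, the mitotic kinase, a signal of 44.5 (rank 2495) at a summit shared with the more distant iff-1. The 4 cdc-25 phosphatase genes were not bound.

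Downstream of CEP-1, 1 of 5 apoptosis genes was bound, the Apaf-1 relative ced-4 (signal 42.0, rank 2702 of 2712), while the CEP-1 targets egl-1 and ced-13 were not. The ced-4 and cdk-1 summits had no match within 200 bp in the replicate 2 list, and their ranks in replicate 1 were 1573 and 2028. None of the 6 other regulators (gld-1, ape-1, abl-1, sir-2.1, tlk-1 and smk-1) was bound. Among the strongest 2712 of a single replicate, sir-2.1 was listed in replicate 2 (rank 2305), as was the cyclin gene cyb-3 in replicate 1 (rank 1742). Of the 31 unbound pathway genes, 20 had a summit within 500 bp in at least 1 relaxed list, against 34.7% of all unbound coding genes (6339 of 18254). The count for the unbound checkpoint genes was 0 of 5, and the difference was not tested.

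**Figure D5:**
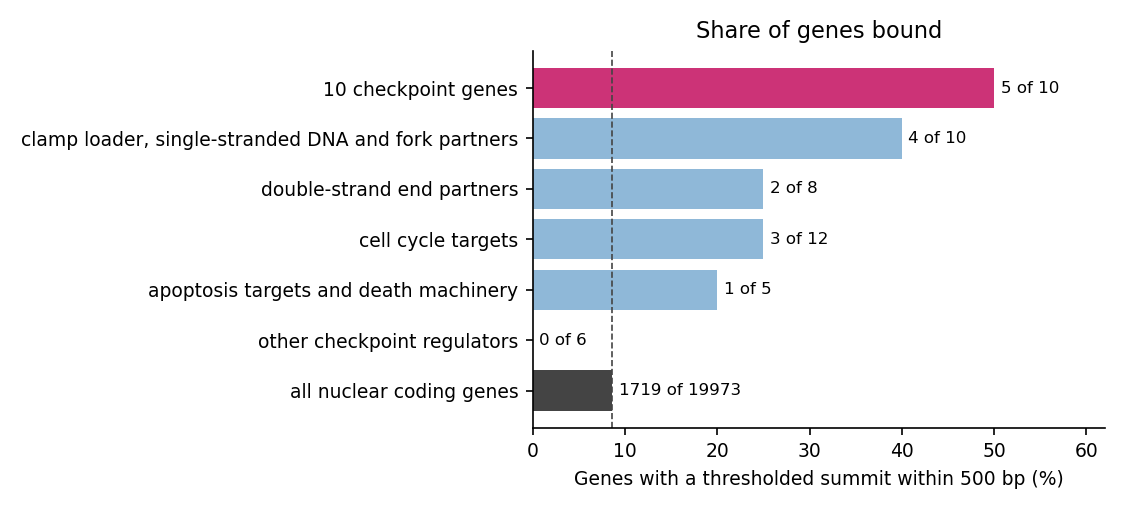
Share of genes with a thresholded summit within 500 bp of the 5' end (x axis, %), for the 10 checkpoint genes, the 5 pathway lists and all nuclear coding genes, with counts beside the bars. The dashed line is the 8.61% of all coding genes; the checkpoint genes (5 of 10) and the fork partners (4 of 10) have the longest bars, and the other regulators are at 0.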

How the data were processed

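LIN-35 ChIP-seq peak lists from 2 biological replicates were analysed. The index texts deposited with the lists say that relaxed lists were called against a control and that thresholding combined them. Aligner, caller and their versions: not given in the sources used here. The authors deposited a signal value per peak, whose scale is not stated, and a −log10 q-value, which is 3.78 for all thresholded peaks and was not used. They also deposited the summit offset. The ce10 lists were not used here.

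Gene-level 5' ends came from Ensembl release 115 and sequence from RefSeq, both WBcel235 (ce11); coordinates are 1-based. Bound genes are those whose 5' end has a thresholded summit 500 bp away or less, and every coding gene within that distance was credited. Summits were matched between lists within 200 bp. Motif words were searched within 100 bp of summits. Scripts used Python 3.11.15 and NumPy 2.4.6 and were tested on simulated summits. Many worm transcripts are trans-spliced, so an annotated 5' end need not be the start of transcription.

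The 10 members, the pathway lists and the motif words were chosen with earlier results of these data known. Named genes were the members, neighbours sharing their summits and the bound genes of the pathway lists; unbound pathway genes, other neighbours and the hpr-9 intron summit were named after their values were seen. Of the 42 listed pathway symbols, 1 is not used by the annotation and was left out. Alternatives tried were distances of 200 and 1000 bp, the 1356 strongest thresholded peaks, summits among the strongest of both replicates and any transcript start. Further ones were the nearest 5' end only, peak overlap and the 2712 strongest peaks of each replicate alone. RefSeq 5' ends were added after seeing the data.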

Additional observations from a re-analysis of the deposited data

How the results depend on the processing

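The count of bound checkpoint genes was 5 with a distance of 1000 bp, the 1356 strongest thresholded peaks, any transcript start and peak overlap. It was also 5 with the 2712 strongest peaks of replicate 2 and with RefSeq 5' ends. It was 4 with the 2712 strongest peaks of replicate 1 and with summits among the strongest of both replicates, each time without hpr-9. At 200 bp it was 3, without atm-1 and chk-1. With the nearest 5' end only it was 3, without atm-1 and hpr-9. The 5 unbound genes stayed unbound in each of these. Over all coding genes the count was 897 (4.49%) at 200 bp, 1103 (5.52%) with the 1356 strongest and 1094 (5.48%) among the strongest of both. The share of coding genes was 10.9% at 1000 bp, 9.17% with any transcript start, 9.28% with peak overlap and 6.71% with the nearest 5' end only. It was 8.55% with RefSeq 5' ends, 7.75% with the 2712 strongest peaks of replicate 1 and 8.47% with those of replicate 2. The pathway lists gave 5 of 41 at 200 bp, and between 7 and 12 elsewhere. Checkpoint genes with a summit in both full replicate lists numbered 3 at 200 bp, against 8.3% of coding genes. Within 50 bp of the summit, an E2F word was at 2 of the 5 bound summits and a CHR word at 2, in a window of fewer bases that cuts through the atm-1 word. The unknown depth limits what an unlisted summit can show, and with 2 replicates no spread was estimated.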
